A study of Mus musculus with 9 samples.

Results

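Whole testes of mice homozygous for the ΔIBB allele of *Kpna6*, the gene for importin α7, were compared with wild-type (WT) testes by RNAseq. The comparison used every sample of the 2 groups by its genotype label, 3 *Kpna6* ΔIBB/ΔIBB (ΔIBB) and 3 WT samples, which are 6 of the 9 samples in the series. All 6 were testes of male mice, 15 weeks old by the labels, and both groups were on the C57Bl6/N background, to which the mutants had been backcrossed for 10 generations. In the ΔIBB allele exon 2 of *Kpna6* is deleted. The labels describe the product as a shortened mRNA with a translational start in exon 3 and a truncated protein without the importin β binding domain. The allele is present in all cells of the mouse, so germ cells and the somatic cells of the testis both carry it. The labels call the samples replicates and do not say that each is a separate animal, and P-values here measure only the spread between these samples.

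Importin α proteins are adaptors of nuclear import. They bind proteins that carry a nuclear localization signal and, through the importin β binding domain, importin β, which takes the complex through the nuclear pore. In the seminiferous tubule, spermatogonia divide and enter meiosis as spermatocytes, and the haploid spermatids then build an acrosome and a flagellum and compact their chromatin, while Sertoli cells support all of these stages and engulf dying germ cells and residual bodies.

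The counts assigned to genes ranged from 28055972 to 31484692 in WT and from 24859751 to 30512672 in ΔIBB testes. Levels are given as CPM, counts relative to the size of the library with TMM scaling between samples, and as TPM where genes are compared with each other, because TPM also accounts for transcript length. Differences are log2 fold changes of ΔIBB over WT with their standard error (SE) and with the P-value of edgeR's quasi-likelihood test, adjusted by Benjamini-Hochberg over all 18797 genes tested. A gene is called higher or lower where its adjusted P-value was below 0.05. Markers of the testis were present in all samples. The ΔIBB replicate 3 stood apart from the other samples in markers of the epididymis, the duct next to the testis: their summed level was 143 CPM, against 11.8 and 15.7 CPM in the other ΔIBB samples and 11.1 to 13 CPM in WT. *Crisp1*, a secreted epididymal protein, had 77.0 TPM in that sample and no more than 1.92 TPM in any other, while *Lcn5* and *Ovch2* were at 0 in all 6.

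As a check of the labels, *Kpna6* (chromosome 4, 129643980 to 129672767, minus strand, GRCm38) had 203, 328 and 337 CPM in the WT samples and 82.2, 86.4 and 82.8 CPM in the ΔIBB samples. The groups did not overlap, and the log2 fold change was -1.79 (SE 0.15, adjusted P=1.94e-05). The files give 1 value for each reference transcript, so reads on the deleted exon itself cannot be counted. Of the 2 main protein-coding transcripts, Kpna6-201 made up 80.7 ± 3.72% of the gene's TPM in WT and 39.2 ± 3.84% in ΔIBB (SD, n=3), and Kpna6-202, whose first exon lies 10288 bases upstream, 14.7 ± 2.29% and 44.7 ± 2.96%.

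Of the 18797 genes tested, 6874 (36.6%) were called, 3327 higher (17.7%) and 3547 lower (18.9%) in ΔIBB testes. The median log2 fold change over all genes was 0.01, and 445 of the called genes differed by more than 2-fold, 236 higher and 209 lower. In 9383 genes (49.9%) the 3 ΔIBB values lay all above or all below the 3 WT values. The split between higher and lower depended on the scaling. With scaling by library size only, 5416 genes were higher and 2326 lower and the median of all genes moved to 0.11, and with limma on log2(TPM + 1) 3925 were higher and 1622 lower with a median of 0.10. Without ΔIBB replicate 3, 6370 genes were called, 3085 higher and 3285 lower.

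Markers of the cell types of the testis differed in both directions. All 12 Sertoli cell markers were higher, with a median log2 fold change of 0.72, and their summed level was 1336 to 1485 CPM in WT and 2024 to 2390.4 CPM in ΔIBB. All 10 round spermatid markers were lower (median -0.53, summed 1448 to 1588 CPM in WT and 1055 to 1234 CPM in ΔIBB), as were all 9 elongating spermatid markers (median -0.37, summed 8124 to 8530.0 CPM and 6148 to 6459.7 CPM). In whole testis, fewer cells of a type and less RNA per cell cannot be told apart. Of the lists described next, the 2 Sertoli lists hold 11 of the 12 Sertoli markers, and 9 of the 10 round and all 9 elongating spermatid markers are members of a list, so lists and markers are not separate measurements.

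Markers of the stages before the spermatid gave lower counts of calls. The counts in this paragraph are to be read against 17.7% higher and 18.9% lower over all genes, and the lists are short. Among 10 spermatogonial markers 4 were higher and 1 lower, among 9 leptotene to zygotene markers 3 were higher and 1 lower, and among 9 pachytene markers 0 were higher and 1 lower by edgeR's test, 2 lower without WT replicate 1 or 3. The pachytene median of -0.07 turned to 0.03 with library size scaling and to 0.05 with limma, and the leptotene to zygotene median of -0.02 turned to 0.08 and 0.10. Of the other somatic cells, 5 of 7 peritubular myoid markers were higher and 1 lower. Macrophage markers were higher in 3 of 10, with a summed level of 88.1 to 109 CPM in WT and 118 to 133 CPM in ΔIBB. The macrophage count was 6 without WT replicate 1 and 1 without WT replicate 3 or ΔIBB replicate 1. Leydig cell markers were higher in 3 of 10, and this count was 0 without WT replicate 3 and 1 without ΔIBB replicate 1 or 2. Without WT replicate 2 there were 2 Leydig markers higher and 2 lower, and their median of 0.01 turned to -0.18. Endothelial markers were lower in 3 of 9, 1 of 9 without WT replicate 3 or ΔIBB replicate 3, and their median of -0.08 was 0.02 with library size scaling and 0.12 with limma. Of 7 lymphocyte markers 1 was higher, 2 without ΔIBB replicate 2, and 1 lower, of 5 red blood cell markers 1 was higher and 4 lower, and of 5 adipocyte markers 1 was lower. Of 4 vas deferens and seminal vesicle genes tested, 2 were higher, 1 of them without WT replicate 2, and 1 was lower. Of 6 epididymal markers tested 2 were higher and 1 lower, and 1 was higher without WT replicate 1 or ΔIBB replicate 3, 0 without WT replicate 2 or 3, and 4 without ΔIBB replicate 1.

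**Figure D1:**
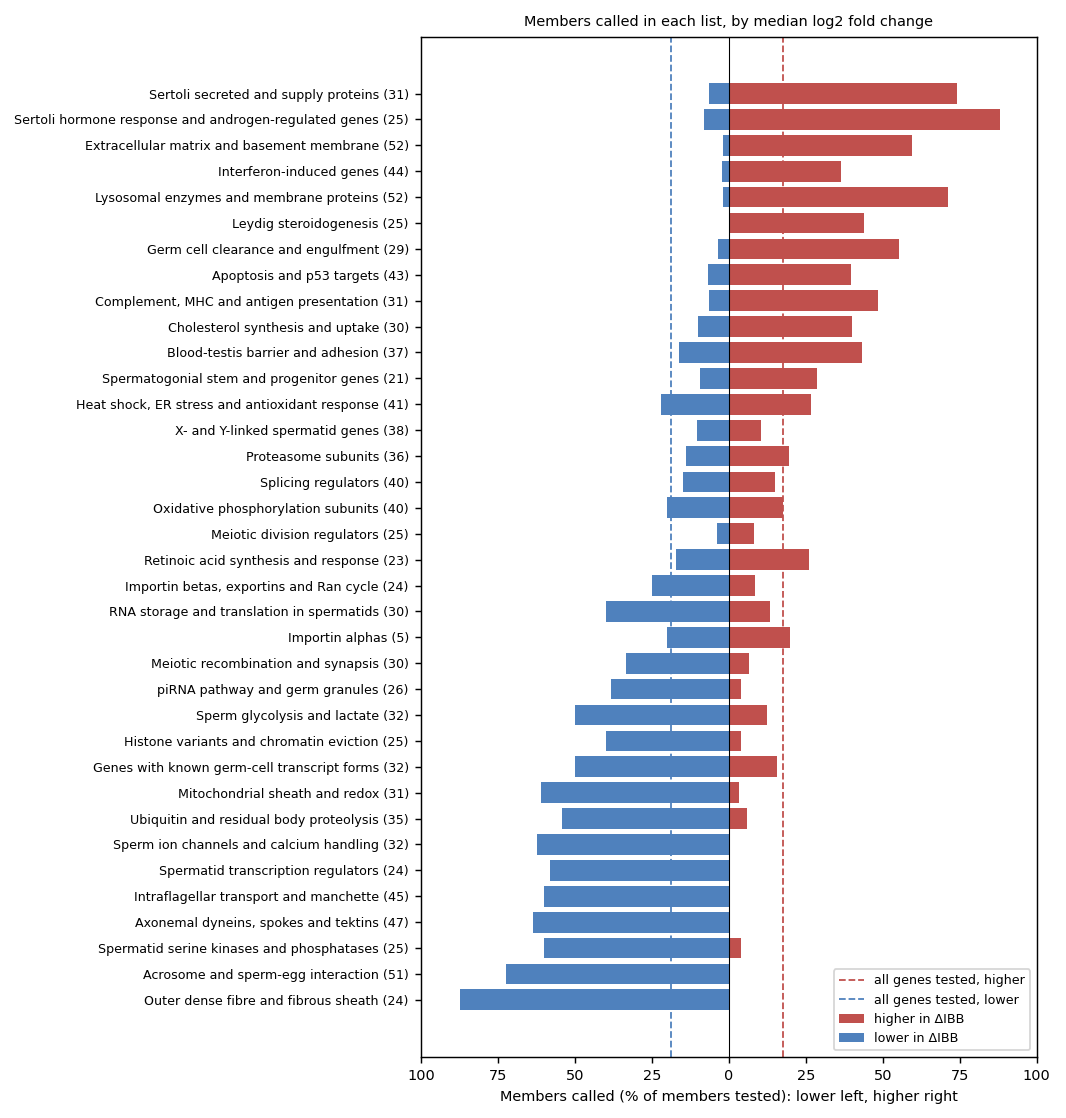
Share of the members tested that were called lower (left) or higher (right) in ΔIBB testes, in percent, for each of 36 gene lists, with the number of members tested in brackets and the lists ordered by their median log2 fold change. Dashed lines give the shares over all 18797 genes, 18.9% lower and 17.7% higher. The 2 Sertoli lists and the extracellular matrix list stand at the top, and the serine kinase, acrosome and outer dense fibre lists at the bottom.

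Genes of the sperm tail were mostly lower. In the list for outer dense fibres and the fibrous sheath, the cytoskeletal layers around the flagellum, 21 of 24 members were lower and 0 higher (median -0.38), against 18.9% lower over all genes. *Fscb*, which binds Cabyr in the fibrous sheath, had 432, 379 and 366 CPM in WT and 219, 215 and 236 CPM in ΔIBB. Every ΔIBB sample lay below every WT sample, and the log2 fold change was -0.81 (SE 0.06, adjusted P=1.39e-05). *Cabyr*, a calcium-binding protein of the same sheath, went from 389, 383 and 403 CPM to 223, 229.6 and 253 CPM (-0.74, SE 0.05, adjusted P=9.96e-06), again without overlap. Groups without overlap were found in 49.9% of all genes. Most members named here and in the lists below were picked for large called changes, so their lack of overlap adds little. *Akap4*, the main scaffold of the fibrous sheath, was lower by a smaller amount (-0.31, SE 0.04, adjusted P=0.000288). *Odf2*, the most abundant member with 3006 TPM in WT, had a log2 fold change of -0.15 (SE 0.03, adjusted P=0.00418) that did not pass the test with library size scaling or limma.

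Axonemal genes encode dynein motors, radial spokes, tektins and their assembly factors. Of 47 such genes 30 were lower and 0 higher (median -0.22), against 18.9% and 17.7% over all genes. With limma on TPM values 11 of them were lower and 1 higher. *Dnah3*, a dynein heavy chain, had 209, 209 and 218 CPM in WT and 87.0, 94.4 and 114 CPM in ΔIBB (-1.10, SE 0.08, adjusted P=1.39e-05). *Hydin*, a protein of the central pair apparatus, had 244, 277 and 270.1 CPM in WT and 159, 174 and 165 CPM in ΔIBB (-0.67, SE 0.05, adjusted P=1.51e-05), and *Dnah12* changed by a similar amount (-0.69, SE 0.08, adjusted P=9.44e-05). In all 3 genes the groups did not overlap, as in 49.9% of all genes. Among genes of intraflagellar transport and the manchette, the microtubule skirt that shapes the spermatid head, 27 of 45 were lower and 0 higher (median -0.22), 17 lower and 4 higher with limma. The leading members were *Actrt3*, an actin-related protein of the testis (-0.62, SE 0.08, adjusted P=0.000164), and *Sun3*, a nuclear envelope protein that links to the manchette (-0.61, SE 0.06, adjusted P=3.61e-05).

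The acrosome list, with the enzymes and membrane proteins that meet the egg, had 37 of 51 members lower and 0 higher (median -0.37). Over all genes 18.9% were lower and 17.7% higher. *Eqtn*, a protein of the acrosomal membrane, had 92.7, 89.0 and 102 CPM in WT and 51.8, 50.8 and 60.1 CPM in ΔIBB (-0.80, SE 0.07, adjusted P=2.53e-05), with no overlap. *Adam24*, a sperm surface protein of the ADAM family, was lower by 0.74 on the log2 scale (-0.74, SE 0.07, adjusted P=4.12e-05). *Crisp2*, a protein of acrosome and flagellum and the most abundant member, had 1747, 1709 and 1611 CPM in WT and 1360.1, 1402 and 1376 CPM in ΔIBB (-0.29, SE 0.04, adjusted P=0.000120).

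Of 32 genes for sperm ion channels and calcium handling, 20 were lower and 0 higher (median -0.19), against 18.9% and 17.7% over all genes. With limma 12 were lower and 2 higher. Both subunits of the sperm potassium channel were among the 20. *Kcnu1*, its pore, had 96.2, 96.8 and 104 CPM in WT and 59.2, 62.4 and 65.2 CPM in ΔIBB (-0.67, SE 0.05, adjusted P=1.51e-05). *Lrrc52*, its auxiliary subunit, had 23.2, 25.8 and 28.2 CPM in WT and 14.2, 13.1 and 15.6 CPM in ΔIBB (-0.85, SE 0.09, adjusted P=7.03e-05). *Catsper3*, a pore subunit of the sperm calcium channel, was lower as well (-0.72, SE 0.10, adjusted P=0.000239). In each of the 3 genes all ΔIBB samples lay below all WT samples, and 49.9% of all genes had no overlap.

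Spermatid kinases and phosphatases were lower in 15 of 25 and higher in 1 (median -0.23), against 18.9% and 17.7% over all genes. With limma the counts were 9 and 1. *Tssk4*, a testis-specific serine kinase, had 104, 97.0 and 108 CPM in WT and 59.0, 64.4 and 76.3 CPM in ΔIBB (-0.63, SE 0.08, adjusted P=0.000206). *Dyrk4*, a kinase of the same list, changed by -0.82 (SE 0.08, adjusted P=4.25e-05) and *Ppp1r42* by -0.65 (SE 0.05, adjusted P=1.61e-05). The member called higher was *Nek2*, a centrosomal kinase (0.22, SE 0.05, adjusted P=0.00438).

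Genes of energy supply were examined in 3 lists. In the glycolysis list the 31 gene symbols gave 32 gene entries tested. Of these 16 were lower and 4 higher (median -0.13), 8 and 6 with limma. *Gapdhs*, the sperm form of glyceraldehyde-3-phosphate dehydrogenase, had 1449, 1491 and 1361 CPM in WT and 1090.5, 1126 and 1107 CPM in ΔIBB (-0.37, SE 0.04, adjusted P=4.16e-05), and *Aldoart1*, a sperm aldolase, changed by -0.51 (SE 0.04, adjusted P=1.71e-05). *Ldhb*, the H subunit of lactate dehydrogenase in somatic tissues, had 75.3, 67.6 and 66.3 CPM in WT and 139.6, 128 and 119 CPM in ΔIBB, above WT in every sample (0.89, SE 0.07, adjusted P=1.39e-05). *Hk2*, a somatic hexokinase, was higher too (0.52, SE 0.07, adjusted P=0.000174). In the list of the mitochondrial sheath and redox proteins 19 of 31 were lower and 1 higher (median -0.15), 11 and 2 with limma. *Smcp*, a structural protein of that sheath, went from 1425, 1522 and 1472 CPM to 1049.6, 1097 and 1024 CPM (-0.48, SE 0.04, adjusted P=1.39e-05), and *Armc12*, needed for the sheath, changed by -0.57 (SE 0.05, adjusted P=1.86e-05). Subunits of oxidative phosphorylation, which all cells use, were higher in 7 of 40 and lower in 8 (median 0.02), which is near the 17.7% higher and 18.9% lower over all genes. The 8 were 5 without WT replicate 1, 4 without ΔIBB replicate 1 and 3 without ΔIBB replicate 2, and with library size scaling 20 were higher and 1 lower.

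**Figure D2:**
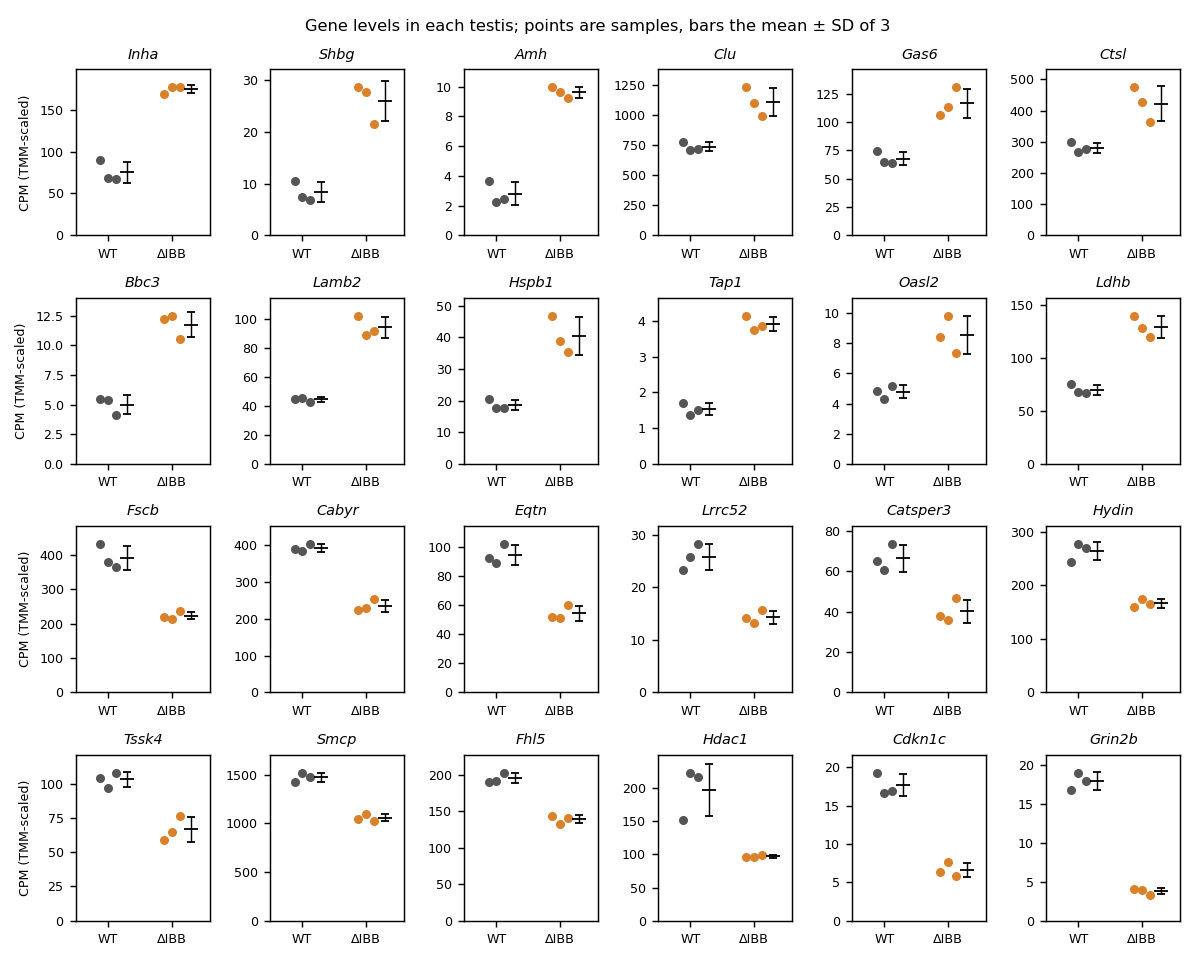
Level of 24 genes in each testis, in CPM after TMM scaling on a linear axis from 0, with WT in grey and ΔIBB in orange. Points are samples and bars the mean ± SD of 3. In every panel the groups do not overlap, as in 49.9% of all genes tested, with the upper 2 rows higher and the lower 2 rows lower in ΔIBB.

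Of 24 transcription regulators 14 were lower and 0 higher (median -0.21), against 18.9% and 17.7% over all genes. With limma 7 were lower and 2 higher. *Fhl5*, a testis coactivator of Crem, had 190.3, 192 and 203 CPM in WT and 144, 133 and 141 CPM in ΔIBB (-0.49, SE 0.04, adjusted P=2.72e-05). *Creb3l4*, a membrane-bound transcription factor of spermatids, changed by -0.48 (SE 0.04, adjusted P=2.58e-05) and *Crem* itself by -0.45 (SE 0.04, adjusted P=3.9e-05). *Dmrtb1*, the most abundant member, had a log2 fold change of 0.01 (SE 0.04, adjusted P=0.778) and was called higher with library size scaling and limma. Of 35 genes of the ubiquitin system in spermatids and residual bodies, 19 were lower and 2 higher (median -0.16), 9 and 5 with limma. *Klhl10*, a ubiquitin ligase adaptor of spermatids, had 434, 426 and 426 CPM in WT and 294, 298 and 321 CPM in ΔIBB (-0.49, SE 0.04, adjusted P=1.59e-05).

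For histone variants and chromatin eviction, 10 of 25 were lower and 1 higher (median -0.13), against 18.9% and 17.7% over all genes. With limma, however, 3 were lower and 6 higher. *Hdac1*, a histone deacetylase, had the largest change in the list and is described with the other genes near *Kpna6*. *Tssk6*, a kinase of spermatids, changed by -0.36 (SE 0.05, adjusted P=0.000156), and *Psme4*, the proteasome activator that acts on acetylated histones, by -0.26 (SE 0.03, adjusted P=0.000217). For RNA storage and translation 12 of 30 were lower and 4 higher (median -0.06), a direction that turned with library size scaling (3 lower, 9 higher) and limma (0 lower, 5 higher). Without ΔIBB replicate 2 the 12 were 7. *Prkra*, an activator of the double-stranded RNA kinase, was higher (0.48, SE 0.09, adjusted P=0.00204).

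For meiotic recombination and synapsis 10 of 30 were lower and 2 higher (median -0.10), and this also turned with library size scaling (2 lower, 5 higher) and limma (2 lower, 3 higher). The 10 were 6 without WT replicate 2, WT replicate 3 or ΔIBB replicate 1, and 5 without ΔIBB replicate 2. *Smc1b*, a meiotic cohesin, had 257, 257 and 259.8 CPM in WT and 195, 204 and 210.1 CPM in ΔIBB (-0.34, SE 0.04, adjusted P=8.22e-05). Against this, *Dmc1*, the meiotic recombinase, was higher (0.40, SE 0.07, adjusted P=0.00142), as was *Prdm9*, which sets recombination sites (0.40, SE 0.10, adjusted P=0.00896). In the piRNA list 10 of 26 were lower and 1 higher (median -0.12), 6 without WT replicate 3, and with limma 2 were lower and 2 higher. *Gtsf1*, a zinc finger protein of the piRNA pathway, changed by -0.40 (SE 0.04, adjusted P=4.53e-05). Meiotic division regulators were called in 3 of 25, with 2 higher and 1 lower (median -0.002), below the 17.7% and 18.9% over all genes. The 2 were 4 without WT replicate 2 and 1 without any other sample, and 8 with library size scaling. Of 21 genes of spermatogonial stem and progenitor cells 6 were higher and 2 lower (median 0.17), 3 higher without ΔIBB replicate 2. *Dmrt1*, a transcription factor of spermatogonia and Sertoli cells, was higher (0.41, SE 0.06, adjusted P=0.000455), and *Pou5f1*, the stem cell factor Oct4, was lower at a low level, with 8.35 TPM in WT and 5.67 TPM in ΔIBB (-0.66, SE 0.12, adjusted P=0.00136).

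Sertoli cell genes were mostly higher. Of 25 genes of hormone response 22 were higher and 2 lower (median 0.59), against 17.7% higher over all genes, and the count was 22 without ΔIBB replicate 3. *Inha*, the α subunit of inhibin, by which Sertoli cells restrain FSH, had 89.4, 68.5 and 67.7 CPM in WT and 169, 177 and 177 CPM in ΔIBB. All ΔIBB samples lay above all WT samples, with a log2 fold change of 1.21 (SE 0.09, adjusted P=1.39e-05). *Amh*, the anti-Müllerian hormone, which the Sertoli cell makes mainly before puberty, had 3.67, 2.23 and 2.46 CPM in WT and 9.96, 9.61 and 9.23 CPM in ΔIBB (1.78, SE 0.16, adjusted P=2.82e-05). *Fshr*, the FSH receptor, was higher by 1.35 on the log2 scale (SE 0.17, adjusted P=0.000149), with 1.49 TPM in WT and 4.17 TPM in ΔIBB. *Defb19*, a β-defensin of Sertoli cells and the most abundant member, went from 117, 88.4 and 83.1 CPM to 169.5, 159 and 149 CPM (0.73, SE 0.11, adjusted P=0.000396).

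Secreted and supply proteins of Sertoli cells were higher in 23 of 31 and lower in 2 (median 0.59), against 17.7% and 18.9% over all genes. *Shbg*, the androgen-binding protein, had 10.5, 7.48 and 6.91 CPM in WT and 28.6, 27.6 and 21.5 CPM in ΔIBB (1.64, SE 0.15, adjusted P=3.13e-05). *Timp1*, an inhibitor of metalloproteases, had 1.19, 0.565 and 0.515 CPM in WT and 6.67, 4.65 and 2.48 CPM in ΔIBB (2.58, SE 0.39, adjusted P=0.000513), so its ΔIBB values varied over more than 2-fold. *Clu*, clusterin, the most abundant member with 594 TPM in WT, had 779, 709.8 and 720.0 CPM in WT and 1233, 1102 and 995 CPM in ΔIBB (0.59, SE 0.07, adjusted P=8.15e-05). The 2 members that were lower were *Prnd*, which encodes doppel (-0.77, SE 0.14, adjusted P=0.00131), and *Tex15*, a gene of germ cells (-0.48, SE 0.07, adjusted P=0.000356).

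For the blood-testis barrier and adhesion the list was mixed, with 16 of 37 higher and 6 lower (median 0.24). The shares over all genes were 17.7% and 18.9%. *Espn*, an actin-bundling protein of the ectoplasmic specialization, had 128, 136 and 106 CPM in WT and 217, 210.3 and 199.5 CPM in ΔIBB (0.76, SE 0.08, adjusted P=4.63e-05), and *Ctnna1*, α-catenin, changed by 0.75 (SE 0.06, adjusted P=1.39e-05). *Cldn3*, a claudin of new tight junctions, went the other way, from 54.8, 58.7 and 57.4 CPM to 32.6, 36.0 and 32.6 CPM (-0.76, SE 0.06, adjusted P=1.39e-05). In none of these 3 genes did the groups overlap, which also held for 49.9% of all genes.

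Genes for the removal of dying cells and of the lysosome were more often higher than lower. Of 29 genes of germ cell clearance and engulfment 16 were higher and 1 lower (median 0.34), against 17.7% and 18.9% over all genes. *Gas6*, a bridge between dying cells and receptor kinases of the Sertoli cell, had 74.6, 65.0 and 63.8 CPM in WT and 106, 113 and 131 CPM in ΔIBB (0.78, SE 0.08, adjusted P=5.04e-05). *Mfge8*, a bridge to integrins, changed by 0.70 (SE 0.10, adjusted P=0.000337), and *Lrp1*, an engulfment receptor, by 0.67 (SE 0.05, adjusted P=1.51e-05). The member called lower was *Adgrb1*, also named Bai1, a receptor for phosphatidylserine, with 10.9, 8.05 and 9.52 CPM in WT and 4.38, 4.58 and 4.46 CPM in ΔIBB (-1.08, SE 0.13, adjusted P=0.000105). It did not pass the test with limma on TPM values.

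Of 52 lysosomal genes 37 were higher and 1 lower (median 0.40), against 17.7% and 18.9% over all genes. Without ΔIBB replicate 3, 35 were higher. *Ctsl*, cathepsin L, which Sertoli cells also secrete, had the highest level in WT of the 37, with 299, 267 and 276 CPM in WT and 475, 426 and 364 CPM in ΔIBB (0.59, SE 0.08, adjusted P=0.000276). *Lipa*, the lysosomal acid lipase, had 7.84, 6.42 and 7.24 CPM in WT and 12.4, 12.6 and 13.5 CPM in ΔIBB (0.84, SE 0.10, adjusted P=0.000126), and *Ctsz*, cathepsin Z, changed by 0.96 (SE 0.15, adjusted P=0.000536). The summed macrophage markers, which were also above WT in all ΔIBB samples, share 3 of their 10 genes with the lysosomal and complement lists, and their part in these lists was not tested.

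Among apoptosis genes and p53 targets 17 of 43 were higher and 3 lower (median 0.30). *Bbc3*, the BH3-only protein Puma, had 5.50, 5.39 and 4.08 CPM in WT and 12.2, 12.5 and 10.5 CPM in ΔIBB (1.23, SE 0.13, adjusted P=5.59e-05). *Bok*, a relative of Bax, changed by 1.04 (SE 0.14, adjusted P=0.000274) and *Casp8*, an initiator caspase, by 0.77 (SE 0.15, adjusted P=0.00233). Both were without overlap, like 49.9% of all genes. For heat shock, ER stress and antioxidant genes 11 of 41 were higher and 9 lower (median 0.08), against 17.7% and 18.9% over all genes. With library size scaling the counts were 21 and 7. *Hspb1*, the small heat shock protein Hsp27, had 20.5, 17.8 and 17.8 CPM in WT and 46.9, 38.9 and 35.3 CPM in ΔIBB (1.11, SE 0.10, adjusted P=2.93e-05). *Xbp1*, a transcription factor of the unfolded protein response, was higher (0.58, SE 0.09, adjusted P=0.000568), while *Hsf2*, a heat shock factor of spermatocytes and spermatids, went from 61.2, 57.4 and 57.4 CPM to 35.9, 35.6 and 37.6 CPM (-0.69, SE 0.05, adjusted P=1.39e-05).

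In the list for steroidogenesis in Leydig cells 11 of 25 were higher and 0 lower (median 0.35), against 17.7% and 18.9% over all genes. The 11 were 7 without WT replicate 3 or ΔIBB replicate 2. *Insl3*, the most abundant Leydig product, had 750.0, 524 and 527 CPM in WT and 651, 650.3 and 427 CPM in ΔIBB, and the groups overlapped (-0.06, SE 0.16, adjusted P=0.805). *Hsd17b11*, a hydroxysteroid dehydrogenase, was higher (0.76, SE 0.10, adjusted P=0.000241), as was *Tspo*, a mitochondrial cholesterol-binding protein (0.66, SE 0.17, adjusted P=0.00993). For cholesterol synthesis and uptake 12 of 30 were higher and 3 lower (median 0.25). *Ebp*, a sterol isomerase, was higher (0.75, SE 0.11, adjusted P=0.000411), and *Cyp51*, lanosterol demethylase, which spermatids express strongly, had 119, 104 and 128 CPM in WT and 78.8, 72.1 and 78.6 CPM in ΔIBB (-0.61, SE 0.07, adjusted P=9.6e-05). In the retinoic acid list 6 of 23 were higher and 4 lower, against 17.7% and 18.9% over all genes. The median was -0.01, but 0.09 with library size scaling and 0.11 with limma. *Aldh1a3*, a retinoic acid synthase, was higher (0.98, SE 0.13, adjusted P=0.000231). *Bco1*, which cleaves β-carotene to retinal, was lower, with 32.8, 36.7 and 43.8 CPM in WT and 18.6, 14.1 and 13.7 CPM in ΔIBB (-1.30, SE 0.13, adjusted P=3.97e-05).

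Of 52 genes of the extracellular matrix and the basement membrane 31 were higher and 1 lower (median 0.45). Over all genes the shares were 17.7% and 18.9%. *Lamb2*, a laminin chain, had 44.7, 45.5 and 42.6 CPM in WT and 102, 88.5 and 91.2 CPM in ΔIBB (1.08, SE 0.06, adjusted P=6.61e-06). *Sparc*, a matrix glycoprotein that Sertoli cells also secrete and the most abundant member, had 329, 322 and 305 CPM in WT and 631, 571 and 549 CPM in ΔIBB (0.87, SE 0.05, adjusted P=6.61e-06). For both genes the lowest ΔIBB sample lay far above the highest WT sample. The highest ΔIBB value of *Eln*, elastin, came from replicate 3, with 17, 16 and 34.8 CPM in ΔIBB and 10.1, 12.3 and 12.4 CPM in WT (0.97, SE 0.25, adjusted P=0.0122), and *Eln* did not pass the test with limma.

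Both immune lists had more members higher than lower, against 17.7% higher and 18.9% lower over all genes. Of 44 interferon-induced genes 16 were higher and 1 lower (median 0.41). *Oasl2*, an oligoadenylate synthetase-like protein, had 4.82, 4.32 and 5.18 CPM in WT and 8.45, 9.84 and 7.38 CPM in ΔIBB (0.84, SE 0.13, adjusted P=0.000654), and *Ifi27*, the most abundant member, changed by 0.72 (SE 0.11, adjusted P=0.000424). In the list of complement, MHC and antigen presentation 15 of 31 were higher and 2 lower (median 0.28). *Tap1*, a peptide transporter of antigen presentation, had 1.70, 1.36 and 1.51 CPM in WT and 4.15, 3.76 and 3.85 CPM in ΔIBB (1.36, SE 0.16, adjusted P=0.000109). In the same list *Nlrc5*, the transactivator of MHC class I genes, had 11.1, 8.58 and 8.90 CPM in WT and 2.21, 1.94 and 2.23 CPM in ΔIBB, and its groups did not overlap (-2.16, SE 0.14, adjusted P=9.96e-06). The other member called lower was *Cd55*, an inhibitor of complement (-0.51, SE 0.09, adjusted P=0.00103). It was at -0.21 (SE 0.04, adjusted P=0.00127) when summed with *Cd55b*, which has near-identical sequence. Proteasome subunits were higher in 7 of 36 and lower in 5 (median 0.04), near the shares over all genes of 17.7% and 18.9%, and 18 and 3 with library size scaling. The members of the proteasome activator PA28, *Psme1* (0.98, SE 0.14, adjusted P=0.000420) and *Psme2* (0.60, SE 0.12, adjusted P=0.00263), were among the former, and *Psma6*, the most abundant subunit, was lower (-0.35, SE 0.04, adjusted P=9.44e-05).

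The shares called among the other nuclear transport genes are to be read against the 17.7% higher and 18.9% lower over all genes. Of 5 other importin α genes *Kpna1*, importin α5, was higher, with 69.5, 66.5 and 67.1 CPM in WT and 88.2, 92.0 and 92.0 CPM in ΔIBB (0.42, SE 0.04, adjusted P=5.66e-05). Its transcript Kpna1-202, annotated for nonsense-mediated decay, had a mean of 12.2 TPM in WT and 24.8 TPM in ΔIBB. The coding transcripts changed less, Kpna1-201 from 8.95 to 9.62 TPM and Kpna1-205 from 4.62 to 3.95 TPM. *Kpna2*, the most abundant, had a log2 fold change of -0.10 (SE 0.04, adjusted P=0.0973). *Kpna4* was at -0.11 (SE 0.04, adjusted P=0.0499), a call that did not hold without any 1 of the 6 samples or in 6 other settings. Of 24 importin β, exportin and Ran cycle genes 6 were lower and 2 higher (median -0.02), but 4 were lower and 6 higher with library size scaling and 3 lower and 4 higher with limma. *Rcc1*, the exchange factor of Ran, had 223, 244 and 242 CPM in WT and 165, 164 and 154 CPM in ΔIBB (-0.55, SE 0.05, adjusted P=1.83e-05), and *Ipo5*, an importin β that is abundant in testis, changed by -0.37 (SE 0.03, adjusted P=2.13e-05). Of 40 splicing regulators 6 were higher and 6 lower (median 0.03), near the shares over all genes of 17.7% and 18.9%, 2 higher without WT replicate 2 or ΔIBB replicate 1 and 18 higher and 3 lower with library size scaling. *Bud31*, a splicing factor, was lower (-0.35, SE 0.06, adjusted P=0.000799).

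Beyond the lists, the protein-coding genes with the largest changes included several that are known from other tissues. *Grin2b*, a subunit of the NMDA receptor of neurons, had 16.7, 19.0 and 17.9 CPM in WT and 4.03, 3.95 and 3.31 CPM in ΔIBB (-2.25, SE 0.11, adjusted P=3.47e-06). *Dab1*, an adaptor of reelin signalling, had 3.57, 3.76 and 3.68 CPM in WT and 0.853, 0.637 and 0.796 CPM in ΔIBB (-2.27, SE 0.19, adjusted P=1.61e-05). In both genes the highest ΔIBB sample was far below the lowest WT sample, but groups without overlap were a condition for naming the genes of this paragraph. *Mpzl2*, an adhesion protein of epithelia, was higher, with 1.63, 1.03 and 0.846 CPM in WT and 6.20, 6.37 and 6.88 CPM in ΔIBB (2.46, SE 0.20, adjusted P=1.61e-05). *Aqp5*, a water channel, changed by 2.66 (SE 0.49, adjusted P=0.00169), *Serpina1d*, a protease inhibitor, by 2.22 (SE 0.26, adjusted P=0.000111), *Nr0b2*, a nuclear receptor without DNA binding, by 2.40 (SE 0.50, adjusted P=0.00341), *Muc2*, a mucin, by -2.47 (SE 0.40, adjusted P=0.000801) and *Cd2*, a T cell adhesion protein, by -2.27 (SE 0.38, adjusted P=0.000992). All of these 8 genes were below 5 TPM in both groups.

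Among genes with at least 50 TPM in a group, the largest differences were smaller. *Cdkn1c*, an inhibitor of cyclin-dependent kinases, had 19.3, 16.7 and 16.9 CPM in WT and 6.36, 7.64 and 5.79 CPM in ΔIBB (-1.42, SE 0.11, adjusted P=1.58e-05). *Ccdc187*, a coiled-coil protein, changed by -1.05 (SE 0.05, adjusted P=3.47e-06) and *Agt*, angiotensinogen, by -1.02 (SE 0.22, adjusted P=0.00391). Higher were *Ly6e*, a surface protein of the Ly6 family (1.10, SE 0.11, adjusted P=5.02e-05), *Vim*, vimentin of the Sertoli cell cytoskeleton (1.00, SE 0.08, adjusted P=1.48e-05), and *Cpe*, carboxypeptidase E (0.97, SE 0.08, adjusted P=1.5e-05). Some of the largest values rest on sequences that several genes share. *Hist2h2aa2* was at 0 CPM in all WT samples and at 45.1, 15.2 and 20.3 CPM in ΔIBB, but summed with its near-identical histone genes the log2 fold change was 0.32. *Tceal6*, *Gm14819*, *Pagr1a* and *Gm44965* were no longer called once near-identical genes were summed, at 0.37, -0.11, 0.13 and -0.03. *Serpina1d* was at 0.59 (adjusted P=0.0105) when summed with its 5 near-identical genes, and *Casp8* at 0.54 (adjusted P=0.00628) when summed with *Gm20257*. *Hspb1*, *Kpna2*, *Ldhb*, *Prnd*, *Insl3* and *Psme2* also have near-identical partners and kept their side of the threshold when summed, while *Aldh1a3*, *Psme1*, *Odf2*, *Prdm9*, *Pphln1* and *Casc4* share only shorter stretches, with 95% identity over at least 100 bases. *Spink8*, an epididymal protease inhibitor, had 1.16, 2.36 and 24.7 CPM in ΔIBB and 0.331 to 0.985 CPM in WT (3.73, SE 1.04, adjusted P=0.0162). The size of this change rested mainly on ΔIBB replicate 3, although the other ΔIBB samples were also above WT. *Spink8* was not called without WT replicate 2 or 3 or with limma.

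The share of called genes differed with chromosome and abundance. On the X chromosome 270 of 938 genes were higher and 56 lower, which is 28.8% and 5.97%, and their median was 0.17. On the autosomes 3036 of 17476 were higher and 3484 lower, with a median of 0.000. The X chromosome had more higher than lower genes in every setting tried, from 208 to 355 higher and from 24 to 68 lower. *Timp1* is X-linked, as is *Nxf3*, of a family of RNA export factors (0.49, SE 0.05, adjusted P=4.6e-05). In the list of X- and Y-linked spermatid genes 4 of 38 were higher and 4 lower (median 0.04), below the 17.7% and 18.9% over all genes. The 4 higher were 2 without WT replicate 3 or ΔIBB replicate 2 and 1 without ΔIBB replicate 1. Abundant genes were more often lower. Of 281 genes with a mean of 500 TPM or more 139 were lower and 21 higher, and of 3328 with 50 to 500 TPM 1419 were lower and 350 higher, whereas of 7032 with 1 to 10 TPM 709 were lower and 1515 higher. For the genes of 50 TPM or more this split was 865 higher and 1033 lower with library size scaling and 738 and 791 with limma. Pseudogenes were higher in 66 and lower in 180 of 1318.

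**Figure D3:**
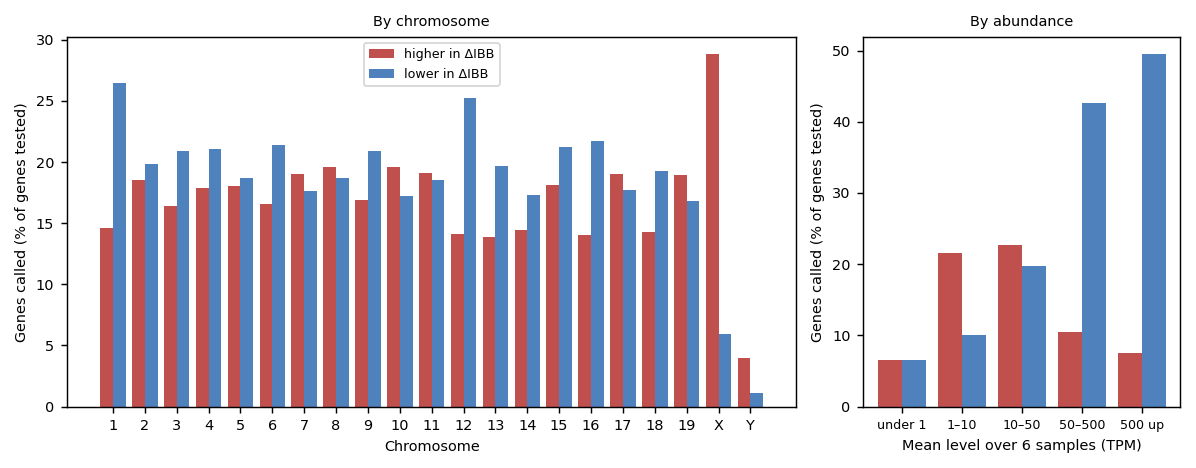
Genes called higher (red) and lower (blue) in ΔIBB testes, in percent of the genes tested, by chromosome (left) and by the mean level over the 6 samples in TPM (right). The X chromosome has 28.8% higher and 5.97% lower, and the share of lower genes is largest in the most abundant class.

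Within 1000000 bases on each side of *Kpna6* 44 genes were tested, of which 11 were higher and 10 lower (47.7% called, against 36.6% of all genes), and 3 differed by more than 2-fold. *Hdac1*, 101267 bases away, had 152, 223 and 216 CPM in WT and 95.3, 95.9 and 98.9 CPM in ΔIBB (-1.03, SE 0.11, adjusted P=7.72e-05), and -0.78 when summed with *Gm10093*, which has near-identical sequence. The 2 others are named after their values were seen. *Dcdc2b*, a doublecortin domain gene 29723 bases away, had 7.33, 11 and 12.1 CPM in WT and 3.26, 2.90 and 3.56 CPM in ΔIBB (-1.64, SE 0.18, adjusted P=7.64e-05). *Sync*, syncoilin, was at 0.17 to 0.331 CPM in WT and 0.465 to 0.669 CPM in ΔIBB (1.25, SE 0.38, adjusted P=0.0254). WT replicate 1 had the lowest WT value for *Kpna6*, *Hdac1* and *Dcdc2b*.

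**Figure D4:**
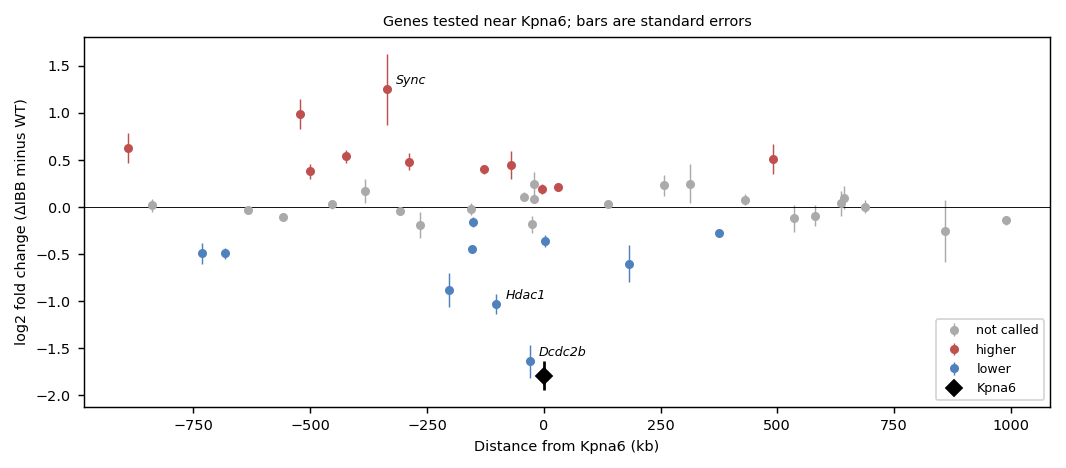
Log2 fold change of ΔIBB over WT, with its standard error, for the 44 genes tested within 1000000 bases of Kpna6, by distance from the gene in kb. Of these 11 are higher (red), 10 lower (blue) and the rest not called (grey), and Kpna6 is the black diamond at -1.79.

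Unequal change among the transcripts of a gene was tested with edgeR's diffSpliceDGE, which asks whether a transcript's fold change differs from that of the rest of its gene. Of 9843 genes with 2 or more transcripts past the filter (38356 transcripts), 193 were called (1.96%), and 688 had an unadjusted P-value below 0.05. Of the 193, 119 were also called as genes, 37 higher and 82 lower, and 74 were not. On the level of transcripts 216 were called, 106 gaining and 110 losing against the rest of their gene. Protein-coding transcripts made up 81 of the gains and 79 of the losses, transcripts with a retained intron 7 and 8, and nonsense-mediated decay transcripts 11 and 16. The largest share difference within a called gene had a median of 8.6 percentage points. Reads were split among transcripts by kallisto's estimate, whose own uncertainty is not in these values.

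The axonemal list of dyneins, spokes, tektins and assembly factors held the most called genes, 4 of 32 members tested (*Cfap70*, *Dnah10*, *Dnah3* and *Dnah6*). Splicing regulators held 3 of 34 (*Hnrnph1*, *Mbnl1* and *Tra2a*). Members of lists that were called but are not described further are named after their values were seen. In the outer dense fibre, acrosome, Sertoli hormone, Sertoli secreted and extracellular matrix lists 0 of 16, 29, 9, 19 and 30 members tested were called by edgeR's test. These counts are too small for a comparison with 1.96%. A list of 32 genes with transcript forms known from germ cells was kept for this test. As genes 5 were higher and 16 lower (median -0.13), against 17.7% and 18.9% over all genes. For its transcripts 1 of 28 tested, *Ehmt2*, was called. The exons that set the main transcripts of *Fat1*, *Dnah6* and *Actn4* apart are shown by the 15 bases on each side of a splice junction, taken from the GENCODE M21 transcripts (GRCm38), 5′ to 3′ on the strand of the gene. Capitals mark the last 2 bases before and the first 2 bases after the junction.
Fat1-203, into its 36-base exon: cctgtgatgacaaTGAAtctttggctgctc
Fat1-203, out of its 36-base exon: tcagcaaaccaagAGGGtaccactgggata
Fat1-205, skipping that exon: cctgtgatgacaaTGGGtaccactgggata
Dnah6-201, into its 156-base exon: ctggttcaagccaAGGTcgactcagccgac
Dnah6-201, out of its 156-base exon: atcactcctctcaCAGAtcgctgctacctt
Dnah6-203, skipping that exon: ctggttcaagccaAGGAtcgctgctacctt
Actn4-201, from the exon upstream: tcaggagcgcagaAGGCtgagaccgctgcc
Actn4-206, from its own first exon: ctcaccacccttcCAGCtgagaccgctgcc

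*Fat1* encodes a giant protocadherin, a membrane protein of cell adhesion. The 36-base coding exon lies at chr8:45049842-45049877 on the plus strand, is in Fat1-203 and is skipped in Fat1-205, which also starts 14761 bases upstream. The share of Fat1-203 was 20.7, 23.6 and 16.9% in WT and 43.2, 39.1 and 40.6% in ΔIBB, a gain of 20.6 percentage points, and that of Fat1-205 was 21.3, 34.7 and 34.3% in WT and 8.63, 5.30 and 6.90% in ΔIBB, a loss of 23.2 points. Neither transcript overlapped between the groups (gene-level adjusted P=0.00212), but a gene was named here only if a transcript met that condition. *Fat1* as a gene was not called (-0.17, SE 0.07, adjusted P=0.0816). Because other transcripts of *Fat1* also contain these junctions, the shares belong to whole transcripts and not to the exon alone.

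*Dnah6* encodes a heavy chain of inner arm dyneins. The junction of Dnah6-203 that skips the 156-base coding exon at chr6:73144660-73144815 on the minus strand is in no other transcript of the gene, and it keeps the reading frame. Its share was 22.9, 26.6 and 18.3% in WT and 41.0, 41.2 and 34.5% in ΔIBB, a gain of 16.3 points, while Dnah6-201 with the exon had 76.8, 72.9 and 81.1% and 59.0, 58.4 and 65.5%. All ΔIBB samples were on 1 side of all WT samples, which the naming of the gene required (gene-level adjusted P=0.0228). The call did not hold without WT replicate 1, ΔIBB replicate 1 or ΔIBB replicate 2. The gene itself was lower (-0.49, SE 0.05, adjusted P=3.37e-05).

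*Actn4* encodes α-actinin 4, an actin crosslinker. Actn4-206 is a non-coding transcript that starts with an exon of its own at chr7:28907298-28907385 on the minus strand, inside the gene. It held 43.7, 49.7 and 43.1% of the gene's TPM in WT and 25.9, 26.9 and 23% in ΔIBB, while the full-length coding Actn4-201 held 25.9, 27.8 and 28.7% in WT and 38.1, 37.1 and 35.6% in ΔIBB. Thus the non-coding form was the larger in each WT sample and the coding form the larger in each ΔIBB sample (gene-level adjusted P=0.000142).

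Annotated starts inside the gene also set apart the transcripts of *Dnah3*, *Trank1*, *Cgnl1* and *Kpna1*, but use of these starts was not tested. Dnah3-202 and Cgnl1-206 have 0 exons and 0 introns of their own against the longer transcript given with them. Dnah3-202, a short coding transcript of 8 exons from the 3′ part of the gene, rose from 21.2, 24.4 and 21.3% to 47.2, 42.9 and 43.8%, and the 61-exon Dnah3-201 had 44.7, 39.9 and 42.5% in WT and 20.2, 19.6 and 20.9% in ΔIBB (gene-level adjusted P=0.000204). The gene as a whole had 29.9 TPM in WT and 19.4 TPM in ΔIBB. In *Trank1*, which encodes a large protein with ankyrin repeats, the non-coding Trank1-202 gained from 20.5 ± 3.00% to 38.7 ± 3.02% (SD, n=3, gene-level adjusted P=7.34e-08). *Cgnl1* encodes paracingulin, a junction protein of epithelia. Its coding transcript Cgnl1-201 held 15.3, 18.7 and 17.8% in WT and 30.7, 40.9 and 31.3% in ΔIBB, but did not pass its own test (transcript-level adjusted P=0.490 by diffSpliceDGE). The short retained-intron transcript Cgnl1-206 lost 23.7 points (gene-level adjusted P=0.000747). The gene's count did not pass the test (0.03, SE 0.06, adjusted P=0.753). Kpna1-202, which is annotated for nonsense-mediated decay and starts 30482 bases downstream of the coding Kpna1-201, gained 17.4 points (43.0, 39.5 and 42.0% in WT, 62.3, 54.5 and 59.8% in ΔIBB). The *Kpna1* call (adjusted P=0.0338) did not hold without WT replicate 2 or 3 or without any of the ΔIBB samples.

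In *Pphln1* and *Ubp1* the transcripts have the same coding sequence and differ in their ends. *Pphln1* encodes periphilin, a protein of gene silencing, and Pphln1-204 had 44.3, 47.8 and 36.9% in WT and 9.62, 21 and 11.2% in ΔIBB (gene-level adjusted P=0.00191). *Ubp1* encodes a transcription factor of the grainyhead family. Its transcript Ubp1-201, which starts 630 bases upstream of Ubp1-203, had 9.90, 7.44 and 8.25% in WT and 21.8, 24.0 and 24.6% in ΔIBB (gene-level adjusted P=1.29e-05). A pair of transcripts was estimated at or near 0 in WT. Shq1-203, a non-coding transcript of a gene for assembly of H/ACA ribonucleoproteins, was listed at 0 in the 3 WT samples and held 22.6, 18.3 and 23.1% in ΔIBB (gene-level adjusted P=0.000173), and it did not pass the test with limma's diffSplice. Sh3bp5-201, a coding transcript of an SH3-binding protein, held at most 0.0426% in WT and 22.8, 22.3 and 15.4% in ΔIBB (gene-level adjusted P=3.43e-08). Against the losing Sh3bp5-203 it has 0 exons and 0 introns of its own, so its share depends on how kallisto split shared reads. Shq1-203 has a 186-base exon that Shq1-204 lacks. Neither gene passed the test in sum, with log2 fold changes of -0.01 (SE 0.09, adjusted P=0.967) for *Shq1* and -0.05 (SE 0.09, adjusted P=0.718) for *Sh3bp5*.

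**Figure D5:**
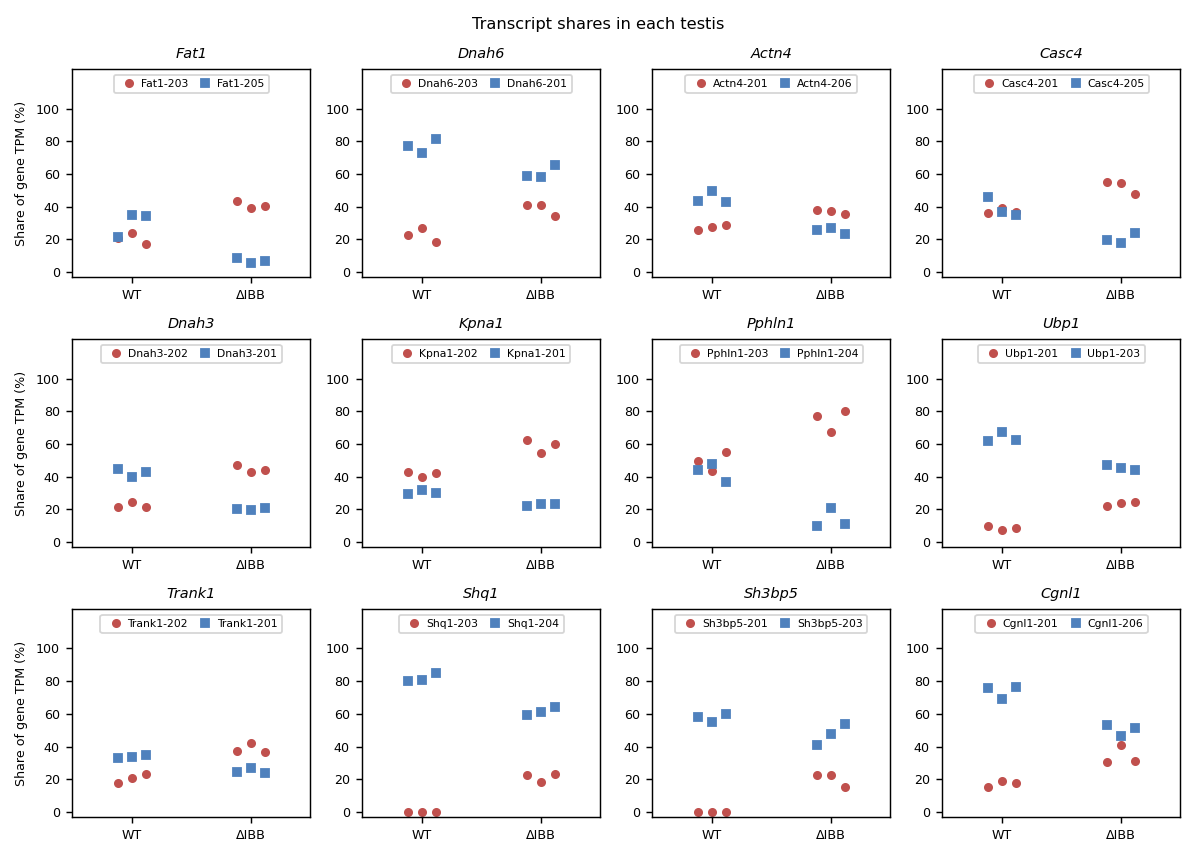
Share of the gene's TPM, in percent, held by a gaining (red circles) and a losing (blue squares) transcript of 12 genes in each WT and ΔIBB testis. Each symbol is a sample. In Actn4 the order of the transcripts differs between the groups, and Shq1-203 and Sh3bp5-201 lie at or near 0 in WT.

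The other 5 genes named for their transcripts depended on single samples or on shared sequence. *Casc4* had a non-coding transcript, Casc4-205, at 39.0 ± 5.92% in WT and 20.5 ± 2.96% in ΔIBB (SD, n=3, adjusted P=0.00941), a call lost without any sample but ΔIBB replicate 3. Zfp949-201 lost 19.0 points and was not called without WT replicate 1 or 2 or ΔIBB replicate 1 or 3. In *Yipf1* the transcript called was the non-coding Yipf1-202, which had 2.53 ± 2.94% in WT and 21.1 ± 5.99% in ΔIBB (SD, n=3, transcript-level adjusted P=0.00649 by diffSpliceDGE), and the gene was not called without WT replicate 1 or ΔIBB replicate 1 or 2. *Jmjd7* and *Gm8922* share near-identical sequence with other genes, and their differences of -23.9 and 23.5 points for Jmjd7-202 and Gm8922-202 are uncertain.

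The share of all estimated counts on retained-intron transcripts was 2.79, 2.77 and 2.81% in WT and 2.92, 2.81 and 2.88% in ΔIBB. The lowest ΔIBB value equalled the highest WT value at this precision, and the difference of 0.0802 percentage points had P=0.2 in the two-sided exact permutation test, where 3 against 3 samples cannot give less than 0.1. Transcripts annotated for nonsense-mediated decay went from 2.23 ± 0.0161% to 2.14 ± 0.00841%, and transcripts typed as processed from 2.31 ± 0.0111% to 2.19 ± 0.0270% (SD, n=3, exact permutation P=0.1 each), without overlap between the groups. By share of TPM instead of counts, retained-intron transcripts held 4.02, 4.11 and 4.12% in WT and 4.34, 4.21 and 4.39% in ΔIBB. By this measure their groups did not overlap either (exact permutation P=0.1).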

How the data were processed

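Poly(A)-selected mRNA of whole testes was sequenced in 3 WT and 3 ΔIBB samples, and 3 knockout samples of the series entered only an alternative fit. For each sample the authors deposited estimated counts and TPM per reference transcript, made with kallisto (version 0.45 and build mm10 per the submitters' processing notes), and no reads were realigned here. TPM sums to the same total in every sample, so abundant transcripts that differ move the others.

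Of 96626 transcripts in the deposited files 95301 were matched to GENCODE M21 (GRCm38), and estimated counts and TPM were summed over 32035 genes. They held 99.54 to 99.55% of the counts. Summed counts were rounded and filtered with filterByExpr and tested with edgeR 4.0.16 (TMM, quasi-likelihood test, Benjamini-Hochberg) in R 4.3.3 in place of the study's own test, and transcript usage with diffSpliceDGE and the Simes method. Both scripts were tested on simulated data. DESeq2 1.42.0, limma 3.58.1 on log2(TPM + 1), other filters and scalings, a replicate block and leaving out samples were alternatives. Near-identical sequence was found with blastn 2.17.0+. Counts set the precision, and kallisto's own uncertainty is not included.

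The genes compared, the 36 gene lists and the 15 marker lists were chosen with earlier results of these data known. Named genes were the 8 protein-coding genes per direction with the largest change, the corresponding genes among those with a group mean of 50 TPM or more, and up to 3 called members per list in the main direction, 2 in the other, and the most abundant. The first 8 were required to have 1 TPM in a group, an adjusted P-value below 0.05 and no overlap between groups, which also held for the second, and transition proteins and protamines were left out. Transcripts were named for the 15 called genes, and members of lists, with at least 5 TPM in both groups and a share difference of at least 15 percentage points. The differing transcript also needed shares without overlap between the groups. Its own test had to go in the same direction with an adjusted P-value below 0.05.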

Additional observations from a re-analysis of the deposited data

How the results depend on the processing

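The count of called genes stayed within 1.5 times 6874 in all settings tried, from 5260 to 6497 without 1 sample and from 5227 to 7742 otherwise, among them 6233 with DESeq2, 6804 without a filter, 5227 with length-scaled TPM counts and 7402 with all 9 samples in the fit. The split between higher and lower moved with the scaling, as given in the report. Genes with changed transcript usage numbered 683 with limma's diffSplice, 132 of them shared with the 193, and 489 with the gene-level F test, 179 shared. Without 1 sample they numbered 169 to 238, and between 99 and 130 of these were shared. The cause of these differences was not tested. The retained-intron difference ranged from 0.0536 to 0.111 percentage points without 1 sample.

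The replicate numbers of the labels did not pair the samples: deviations of same-numbered WT and ΔIBB samples correlated at -0.035, 0.069 and 0.061 over genes. With the replicate number as a block 6793 genes were called, 3277 higher and 3516 lower, and 125 genes for transcript usage, 119 of them shared with the 193.

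The following directions turned. Importin β genes had 4 members lower and 6 higher with library size scaling, and 3 and 4 with limma. Meiotic recombination genes had 2 lower and 5 higher, and 2 and 3. Genes of RNA storage had 3 lower and 9 higher, and 0 and 5, and histone variants 3 lower and 6 higher with limma. Meiotic division regulators had 0 higher with length-scaled TPM counts, 2 higher and 3 lower with all 9 samples, and 1 higher and 2 lower without WT replicate 1 or ΔIBB replicate 3. Epididymal markers had 0 higher with limma and without WT replicate 2 or 3. *Pagr1a* was at 0.13 with near-identical genes summed, *Ubb* at 0.09 and *Morf4l1* at 0.09 with library size scaling, *Morf4l1* at 0.17 with limma and *Celf2* at -0.10 with length-scaled TPM counts. Over all settings, 176 of 2941 values of 208 named genes, from 60 genes, no longer passed the test, and 43 of 187 values of 17 named genes' transcripts, from 9 genes.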

Other observations

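The 3 knockout testes of the series entered only the alternative fit with all 9 samples, and their transcript shares are given as values only. *Sh3bp5*-201, near 0 in WT, held 1.15, 0.533 and 0.195% of the gene's TPM in the knockout samples, and *Shq1*-203 was listed at 0 in all 3. *Dnah3*-202 held 18.5, 21.9 and 23.6% there, against 22.3 ± 1.80% in WT and 44.6 ± 2.28% in ΔIBB (SD, n=3), and *Actn4*-206 held 44.4, 39.6 and 39.7%, against 45.5 ± 3.64% and 25.3 ± 2.01%. *Kpna6*-201 held 89.0, 89.2 and 89.6% of the remaining *Kpna6* signal. No test was made between the mutants, which share the WT samples as control.

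The genes called higher had a median GC content of 52.8% and a median length of 2518 bases, those called lower 49.0% and 2037 bases, and all genes tested 50.1% and 2139 bases. On chromosome 1 14.6% of the genes were higher and 26.5% lower, and on chromosome 12 14.1% and 25.2%.

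Members of the lists with smaller shifts of their transcripts, named after their values were seen, included *Tra2a*, a splicing regulator whose retained-intron transcript *Tra2a*-203 held 12.7, 13.5 and 14.6% in WT and 5.34, 6.12 and 6.45% in ΔIBB (diffSpliceDGE in edgeR, gene-level adjusted P=4.84e-06). *Pkm*, pyruvate kinase, which shares near-identical sequence with *Gm6560*, had *Pkm*-201 at 23, 19.1 and 20.5% in WT and 35.1, 35.3 and 35.6% in ΔIBB (gene-level adjusted P=0.000114). In both genes the groups did not overlap.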
